A study of Mus musculus with 6 samples.

Results

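The 39 genes described here act in the G2 and M phases of the cell cycle, when a cell enters mitosis, separates its chromosomes and divides. They were taken by name from the deposited count table, where each of the 39 names has a single row among 41921, and all 39 passed the filter on low counts, so they are 39 of the 13158 genes tested. The RNA came from RAW264.7 cells, an established mouse line of monocyte/macrophage type that divides in culture and can form osteoclasts, the cells that resorb bone, when given the cytokine RANKL. All 6 libraries are labelled wild type and osteoclast differentiation, with RANKL at 50 ng/mL given to cells 3 days past confluence. The labels set 3 libraries under RANKL (called RANKL replicates 1 to 3) and 3 under albiflorin, a compound from peony root. Neither dose nor time is stated for albiflorin, the labels do not say apart from the shared protocol that these cells also had RANKL, and no untreated library was analysed here. The labels leave unsaid if replicates were grown as separate cultures, so p-values reflect only how far these libraries vary, and that variation may be technical.

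Entry into mitosis is driven by the kinase Cdk1 bound to cyclin B, with the Polo and Aurora kinases acting alongside it. The spindle checkpoint then holds chromosome separation back until every kinetochore, the protein plate on each centromere, is attached to microtubules. When it is satisfied, Cdc20 and the anaphase-promoting complex send securin and cyclin B for degradation. Most of these genes are transcribed late in the cycle under the control of the MuvB complexes, which bind a promoter element called CHR and act with B-Myb and Foxm1, and many of the promoters also carry CCAAT boxes bound by NF-Y. Osteoclast precursors are known to leave the cell cycle before they fuse. In RNA from a whole culture, more cells in G2 and M and more of these mRNAs in each such cell cannot be told apart.

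The libraries held 13673284 to 15489482 counts each. Of the 10 macrophage markers listed, 9 were matched by symbol (not Lyz2) and 8 had a mean of at least 1 CPM (counts divided by the TMM-scaled library size), with a summed level of 3995 to 4293 CPM with RANKL and 4135 to 4309 CPM with albiflorin. The 10 osteoclast markers summed to 194 to 208 CPM with RANKL and 186 to 196 CPM with albiflorin, and 6 of them had a mean of at least 1 CPM. The calcitonin receptor gene Calcr, a defining marker of the mature cell, was the only 1 of the 10 with 0 counts in all 6 libraries (3 counts, the limit that a count of 0 allows, are at most 0.223 CPM in any library). Fibroblast or osteoblast markers summed to 4.59 to 7.46 CPM with RANKL and 4.61 to 5.48 CPM with albiflorin. Lymphocyte markers summed to at most 0.659 CPM and epithelial markers to at most 0.141 CPM in any library.

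Mitotic genes were mostly somewhat higher in the albiflorin libraries. Of the 39 genes 17 rose and 1 fell (edgeR quasi-likelihood test, adjusted p under 0.05), while 21 did not pass. Among all tested genes 12.4% were called higher and 11.4% lower, against 43.6% and 2.56% of the mitotic genes. The median log2 fold change of the 39 was 0.15, beside 0.0056 over all tested genes. All changes were below 1.5-fold: the largest, in the securin gene Pttg1, was 1.45-fold. In 24 of the 39 every albiflorin library lay above every RANKL library, in 3 every one lay below, and in 12 the groups overlapped. Over all tested genes the groups did not overlap for 20.8% in the higher direction and 19.3% in the lower direction. Without RANKL replicate 2 the mitotic genes held 10 higher and 0 lower, beside 7.57% of all genes tested in that fit called higher. Without albiflorin replicate 1 they held 11 and 1, beside 7.36% higher, and without albiflorin replicate 2 they held 9 and 1, beside 7.65%.

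**Figure D1:**
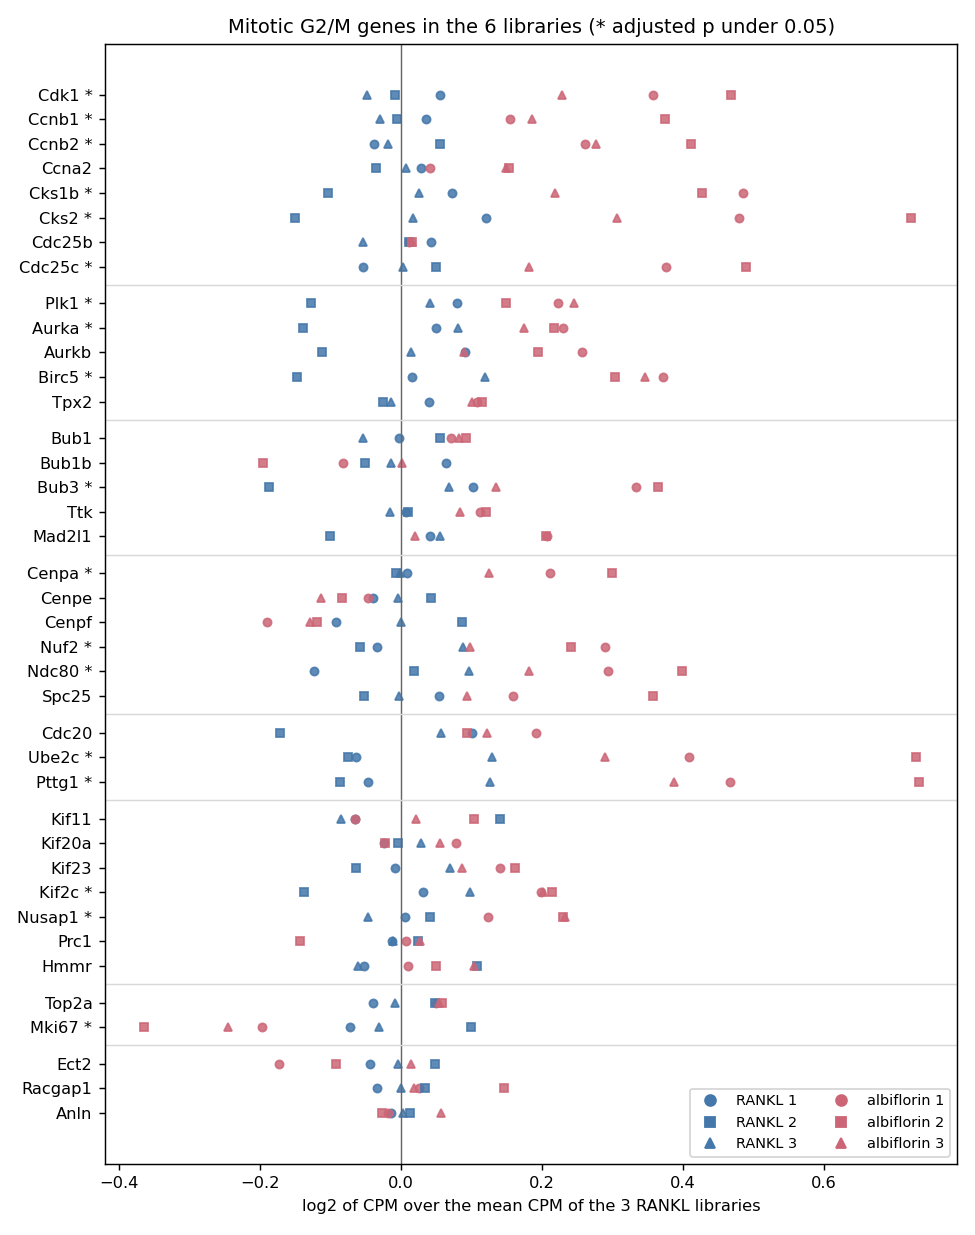
Each row is a mitotic gene, grouped by role, and each symbol a library (blue RANKL, red albiflorin; shapes are replicates), plotted as log2 of its CPM over the mean of the 3 RANKL libraries. Most red symbols lie to the right of the blue ones for the entry genes and for Ube2c and Pttg1, lie among them for the cytokinesis genes, and lie to the left for Mki67.

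These counts run beside a trend with mRNA length that spans the transcriptome: in the albiflorin libraries short mRNAs were higher and long ones lower. Results are therefore also given with that trend removed from each library, using the mRNA length of the principal transcript in GENCODE M21 (called below the length-adjusted fit). In the length-adjusted fit 6 of the 39 were called higher and 0 lower, which is 15.4% against 4.89% of all tested genes called higher and 5.59% called lower. The median of the 39 was then 0.12, beside -0.019 over all tested genes, and 34 of the 39 had a positive value, against 33 before. Of the 18 genes called before, 3 were also called in it (Cdk1, Ccnb1 and Nusap1), and 3 others were called only there (Tpx2, Mad2l1 and Top2a).

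The promoters of many of these genes hold the CHR and CCAAT elements named above. The choice by name did not use the sequences. It is not independent of them, since most genes of this kind are known to be controlled through CHR. RefSeq promoter windows (GRCm38.p6, 250 bases before to 50 after each start) were found for 34 of the 39; none was found for Ccna2, Cdc25c, Aurkb, Tpx2 and Kif20a. The CHR element, searched as TTTGAA on both strands, was present in 24 of the 34 (70.6%), against 20.2% of all 27025 genes in the table, a gene with several windows being counted once if any holds a match. It started within 50 bases of the transcription start in 22 of them, or 64.7%, against 5.72% of all genes. A CCAAT box, searched as CCAAT on both strands, was present in 26 (76.5% against 41.1%), and both elements in 21 (61.8% against 7.97%). A match is a description of letters and not a shown binding site.

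The stretches from 120 bases before to 50 after the start are shown for the 7 genes of highest and the 2 of lowest fold change among the 34 with a window, in that order, with CHR and CCAAT matches in capitals (TTCAAA and ATTGG are the same elements on the other strand). Ube2c, Cks1b, Cdk1 and Ccnb2 hold both elements in this stretch, as does Cenpf, whose fold change was below zero. Cks2, which rose, holds CCAAT matches and no CHR match, and Pttg1 and Birc5, which also rose, hold neither. Mki67, which fell, holds 2 CHR matches upstream and no CCAAT match in this stretch.
Pttg1, chr11:43425932-43426101, minus strand: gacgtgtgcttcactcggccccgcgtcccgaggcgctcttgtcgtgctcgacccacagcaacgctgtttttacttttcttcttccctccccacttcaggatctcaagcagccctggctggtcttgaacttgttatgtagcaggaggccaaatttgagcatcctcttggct
Cks2, chr13:51645112-51645281, plus strand: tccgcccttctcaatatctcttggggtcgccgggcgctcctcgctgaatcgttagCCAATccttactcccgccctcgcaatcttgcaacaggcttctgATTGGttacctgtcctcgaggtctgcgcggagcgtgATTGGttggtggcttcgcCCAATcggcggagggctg
Ube2c, chr2:164769809-164769978, plus strand: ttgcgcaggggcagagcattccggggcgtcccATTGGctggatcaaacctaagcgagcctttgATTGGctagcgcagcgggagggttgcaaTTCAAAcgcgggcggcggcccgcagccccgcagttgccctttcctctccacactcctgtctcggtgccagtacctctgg
Cks1b, chr3:89418242-89418411, minus strand: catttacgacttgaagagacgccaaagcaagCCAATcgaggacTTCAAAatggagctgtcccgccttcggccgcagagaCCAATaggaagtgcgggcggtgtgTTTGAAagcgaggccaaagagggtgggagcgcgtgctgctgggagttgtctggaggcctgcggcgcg
Cdk1, chr10:69352863-69353032, minus strand: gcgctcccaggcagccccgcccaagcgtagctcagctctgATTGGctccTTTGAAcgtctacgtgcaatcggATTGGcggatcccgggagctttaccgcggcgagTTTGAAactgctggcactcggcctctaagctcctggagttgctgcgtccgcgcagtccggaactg
Birc5, chr11:117849117-117849286, plus strand: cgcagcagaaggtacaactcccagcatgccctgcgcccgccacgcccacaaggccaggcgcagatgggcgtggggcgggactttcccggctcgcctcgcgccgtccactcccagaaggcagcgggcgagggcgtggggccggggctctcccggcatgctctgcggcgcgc
Ccnb2, chr9:70421505-70421674, minus strand: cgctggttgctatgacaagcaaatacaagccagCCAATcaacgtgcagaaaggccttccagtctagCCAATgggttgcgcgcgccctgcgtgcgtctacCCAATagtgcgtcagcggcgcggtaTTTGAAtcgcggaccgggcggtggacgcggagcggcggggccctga
Cenpf, chr1:189688037-189688206, minus strand: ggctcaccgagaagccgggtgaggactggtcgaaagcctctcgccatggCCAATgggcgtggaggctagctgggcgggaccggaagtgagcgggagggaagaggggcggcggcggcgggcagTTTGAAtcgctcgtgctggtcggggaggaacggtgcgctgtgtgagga
Mki67, chr7:135716330-135716499, minus strand: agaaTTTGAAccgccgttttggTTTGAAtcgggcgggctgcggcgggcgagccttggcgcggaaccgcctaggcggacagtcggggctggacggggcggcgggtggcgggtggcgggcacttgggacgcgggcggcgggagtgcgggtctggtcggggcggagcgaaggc

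The kinase, cyclins and activators that start mitosis held 6 of 8 genes called higher and 0 lower. Cdk1, the kinase itself (chromosome 10, 71686965 to 71703268 in the coordinates of the deposited table), stood at 127, 122 and 118 CPM with RANKL and 157, 169 and 143 CPM with albiflorin. The lowest albiflorin library was above the highest RANKL library. It rose by 0.35 ± 0.068 (log2 fold change ± SE, adjusted p = 0.0019), and kept its call with each library left out. Its partner Ccnb1, cyclin B1 (chromosome 13, 105793452 to 105808671), stood at 103, 100.5 and 98.8 CPM with RANKL and 112, 131 and 115 CPM with albiflorin, again without overlap, with albiflorin replicate 2 highest. Ccnb1 rose by 0.24 ± 0.0672 (adjusted p = 0.0164), a call that ended when RANKL replicate 2 or 3, or albiflorin replicate 2, was left out (adjusted p = 0.0504 to 0.0884). Ccnb2, cyclin B2, stood at 139.8, 149 and 142 CPM with RANKL and 172, 191 and 174 CPM with albiflorin, without overlap, and rose by 0.32 ± 0.0626 (adjusted p = 0.00225). Ccna2, cyclin A2, which acts from S phase into early mitosis, stood at 227, 217 and 224 CPM with RANKL and 229, 248 and 247 CPM with albiflorin. Its groups did not overlap, but the nearest libraries were almost equal, and it did not pass (0.11 ± 0.0594, adjusted p = 0.179).

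The small Cdk-binding proteins Cks1b and Cks2, which help the kinase to reach its substrates, had some of the larger changes. Cks1b stood at 164, 145 and 159 CPM with RANKL and 218, 209.6 and 181 CPM with albiflorin and rose by 0.38 ± 0.0736 (adjusted p = 0.00195). Cks2 stood at 37.1, 30.8 and 34.5 CPM with RANKL and 47.6, 56.4 and 42.3 CPM with albiflorin and rose by 0.51 ± 0.102 (adjusted p = 0.00229). In both genes the groups did not overlap and RANKL replicate 2 was the lowest library. The phosphatases that remove the inhibitory phosphates from Cdk1 had different values. Cdc25c rose by 0.35 ± 0.0916 (adjusted p = 0.011), a call lost when albiflorin replicate 2 was left out (adjusted p = 0.0559). Cdc25b stood at 152, 148 and 142 CPM with RANKL and 149, 149 and 149 CPM with albiflorin. All Cdc25b albiflorin libraries lay within the RANKL range (0.014 ± 0.058, adjusted p = 0.891). The difference between the 2 genes was not tested. In the length-adjusted fit Cdk1 (0.45, adjusted p = 0.0011) and Ccnb1 (0.19, adjusted p = 0.0479) were called, and Ccnb2 (0.12), Cks1b (0.017), Cks2 (0.086) and Cdc25c (0.23) were not.

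The value for Cdk1 depends on which transcript is taken. GENCODE lists 2 equally ranked principal transcripts for it, of 4375 and 1253 nt, and with the shorter one its length-adjusted log2 fold change was 0.13 (adjusted p = 0.129). For the checkpoint gene Mad2l1 the 2 lengths were 7557 and 1725 nt, and the values 0.38 (adjusted p = 0.00709) and 0.014 (adjusted p = 0.909). With the shortest principal transcript for all genes, an alternative added after these lengths had been seen, 8 of the 39 were called higher and 0 lower: Ccnb1, Nusap1, Tpx2, Top2a, Kif23, Kif2c, Bub3 and Ndc80. Of all tested genes 4.98% were called higher and 6.43% lower with that choice. With the trend on the gene length listed in the deposited table removed instead, 12 of the 39 were higher and 0 lower, or 30.8%, against 7.18% of all tested genes called higher and 7.96% called lower. Ccnb1 and Nusap1 were the only 2 of the 39 called in all 4 of these fits.

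**Figure D2:**
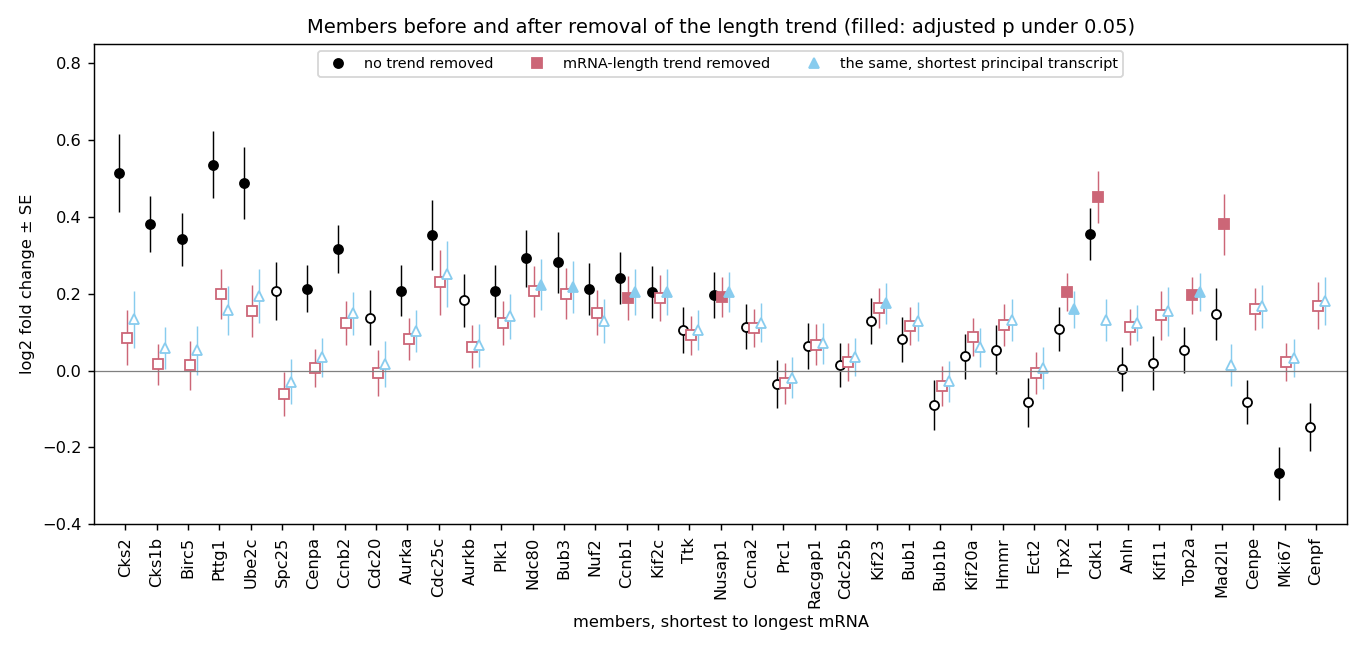
Log2 fold change ± SE of each mitotic gene, ordered from the shortest to the longest mRNA, without removal of the length trend (black circles) and with it removed using the longest (red squares) or shortest (light blue triangles) principal transcript; filled symbols have an adjusted p under 0.05. The shortest genes, such as Cks2 and Pttg1, move down after removal, the longest, such as Cenpf, move up, and Cdk1 and Mad2l1 differ most between the 2 transcript choices.

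Among the Polo and Aurora kinases and their partners 3 of 5 genes rose and 0 fell. Plk1, the Polo kinase of mitotic entry and spindle assembly, stood at 106, 92 and 103 CPM with RANKL and 117, 111 and 119 CPM with albiflorin. Aurka, the centrosomal Aurora kinase, stood at 105, 91.6 and 107 CPM with RANKL and 118, 117 and 114 CPM with albiflorin. In both the groups were separate, with RANKL replicate 2 lowest. Plk1 rose by 0.21 ± 0.0667 (adjusted p = 0.0331), a call lost when RANKL replicate 2 or 3, or albiflorin replicate 1 or 3, was left out (adjusted p = 0.0563 to 0.138). Aurka rose by 0.21 ± 0.0668 (adjusted p = 0.0327), a call lost when RANKL replicate 1 or 2, or albiflorin replicate 1 or 2, was left out (adjusted p = 0.0509 to 0.137). Aurkb, the kinase of the chromosomal passenger complex, was not called (0.18 ± 0.0677, adjusted p = 0.0617), and its groups overlapped at 1 library by a small margin; it passed without RANKL replicate 1 (adjusted p = 0.0482) or albiflorin replicate 3 (adjusted p = 0.0276).

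Birc5, the survivin subunit of that complex, stood at 121, 108 and 130.5 CPM with RANKL and 155, 148 and 153 CPM with albiflorin, without overlap. It rose by 0.34 ± 0.069 (adjusted p = 0.00259) and kept its call with each library left out. Tpx2, which activates Aurora A at the spindle, stood at 274, 262 and 264 CPM with RANKL and 287, 289 and 286 CPM with albiflorin, also without overlap. Tpx2 was not called (0.11 ± 0.0569, adjusted p = 0.187) but was in the length-adjusted fit (0.20, adjusted p = 0.0157). Plk1 (0.12), Aurka (0.081) and Birc5 (0.013) were not called in that fit.

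Of the 5 spindle checkpoint genes 1 rose and 0 fell. Bub3, an adaptor that brings the checkpoint kinases to kinetochores, stood at 225, 184 and 220.2 CPM with RANKL and 264.6, 270.4 and 230.5 CPM with albiflorin, without overlap, with RANKL replicate 2 well below the other RANKL libraries. It rose by 0.28 ± 0.08 (adjusted p = 0.0182), a call that ended when RANKL replicate 2, or albiflorin replicate 1 or 2, was left out (adjusted p = 0.0571 to 0.0956), and it was not called in the length-adjusted fit (0.20, adjusted p = 0.0681). The kinase gene Bub1 stood at 152, 158 and 147 CPM with RANKL and 159.8, 162 and 161 CPM with albiflorin, and its relative Bub1b, which encodes BubR1, an inhibitor of Cdc20, at 376, 347 and 356 CPM with RANKL and 339.9, 314 and 360.1 CPM with albiflorin. Bub1 was slightly higher in every albiflorin library without a call (0.082 ± 0.0585, adjusted p = 0.339), and Bub1b overlapped between groups (-0.090 ± 0.0652, adjusted p = 0.344). Ttk, the Mps1 kinase at the head of the checkpoint, had 0.11 ± 0.0592 (adjusted p = 0.214). Mad2l1, the protein that seizes Cdc20, had 0.15 ± 0.0688 (adjusted p = 0.136) and passed without albiflorin replicate 3 (adjusted p = 0.0349).

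Of the 6 centromere and kinetochore genes 3 rose and 0 fell. By the libraries 4 lay wholly higher with albiflorin and 2 wholly lower, beside 20.8% and 19.3% of all tested genes. Ndc80, the core of the microtubule-binding complex, stood at 64.9, 71.6 and 75.6 CPM with RANKL and 86.6, 93.1 and 80.1 CPM with albiflorin, and rose by 0.29 ± 0.0744 (adjusted p = 0.00999), a call lost when RANKL replicate 1 was left out (adjusted p = 0.0576). Its partner Nuf2 rose by 0.21 ± 0.0673 (adjusted p = 0.0312), a call lost when RANKL replicate 1 or 2, or albiflorin replicate 1 or 2, was left out (adjusted p = 0.0811 to 0.185). Spc25, of the same complex, had a like value without a call (0.21 ± 0.0746, adjusted p = 0.0544). It passed without albiflorin replicate 3 (0.26, adjusted p = 0.0214). With all 6 libraries its value in the length-adjusted fit was -0.061 (adjusted p = 0.56). Cenpa, the histone H3 variant that marks centromeres, stood at 160.2, 159 and 159 CPM with RANKL and 184, 196 and 174 CPM with albiflorin. Its RANKL libraries were nearly equal and all below the albiflorin ones. It rose by 0.21 ± 0.0614 (adjusted p = 0.0192), but not when RANKL replicate 1, 2 or 3, or albiflorin replicate 1 or 2, was left out (adjusted p = 0.0531 to 0.0791).

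The genes Cenpe, a kinesin that carries chromosomes to the spindle equator, and Cenpf, a large kinetochore and nuclear matrix protein, were lower in every albiflorin library. Cenpe stood at 207, 219 and 212 CPM with RANKL and 206, 201 and 197 CPM with albiflorin, and Cenpf at 398, 451 and 425 CPM with RANKL and 372, 391 and 388 CPM with albiflorin. Neither passed (Cenpe -0.082 ± 0.0578, adjusted p = 0.33; Cenpf -0.15 ± 0.063, adjusted p = 0.106). Both changed sign in the length-adjusted fit, to 0.16 (adjusted p = 0.0743) and 0.17 (adjusted p = 0.0915). None of the 6 was called in that fit.

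The partners of the anaphase-promoting complex, the ubiquitin ligase that ends mitosis, held 2 of 3 genes called higher and 0 lower, among them the gene with the largest fold change of the 39, Pttg1, in the fit without length adjustment. Pttg1, securin, which keeps the cohesin-cutting enzyme separase inactive (chromosome 11, 43477841 to 43484973), stood at 57.4, 55.8 and 64.7 CPM with RANKL and 82, 98.7 and 77.5 CPM with albiflorin. Ube2c, the ubiquitin-conjugating enzyme that starts the chains (chromosome 2, 175198355 to 175207143), stood at 128, 127 and 146 CPM with RANKL and 177, 222 and 163 CPM with albiflorin. In both genes all albiflorin libraries were above all RANKL libraries, and albiflorin replicate 2 stood highest. Pttg1 rose by 0.54 ± 0.0873 (adjusted p = 0.000716) and Ube2c by 0.49 ± 0.0932 (adjusted p = 0.00189), and both kept their calls with each library left out. Without albiflorin replicate 2 the values were 0.42 and 0.35. Neither was called in the length-adjusted fit (Pttg1 0.20, adjusted p = 0.0638; Ube2c 0.15, adjusted p = 0.165), though both were with the listed gene length (0.37, adjusted p = 0.00299, and 0.39, adjusted p = 0.00457). Cdc20, the activator that recruits substrates, stood at 153, 127 and 148 CPM with RANKL and 163, 152 and 155 CPM with albiflorin. Its groups overlapped and it was not called (0.14 ± 0.0714, adjusted p = 0.179; -0.0059 in the length-adjusted fit).

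Of the 7 spindle motor and microtubule-binding genes 2 rose and 0 fell. Nusap1, which bundles spindle microtubules, stood at 179, 184 and 173 CPM with RANKL and 195, 209 and 209.8 CPM with albiflorin, without overlap. It rose by 0.20 ± 0.0599 (adjusted p = 0.0261), and its value changed little in the length-adjusted fit (0.19, adjusted p = 0.0259). Without length adjustment its call was lost when RANKL replicate 1 or 3, or albiflorin replicate 2 or 3, was left out (adjusted p = 0.0609 to 0.114). Kif2c, a kinesin that shortens microtubules at centromeres, stood at 90.2, 80.2 and 94.5 CPM with RANKL and 101, 102 and 102 CPM with albiflorin and rose by 0.21 ± 0.0676 (adjusted p = 0.0368), but not when RANKL replicate 1 or 2, or albiflorin replicate 1, 2 or 3, was left out (adjusted p = 0.0564 to 0.148). The other motor and bundling genes were not called: Kif11 (0.020), which pushes spindle poles apart, Kif20a (0.037) and Kif23 (0.13), kinesins of the midzone and of cytokinesis, Prc1 (-0.034), which cross-links midzone microtubules, and Hmmr (0.054), a spindle-pole protein. Of these only Kif23 had separate groups.

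The mitotic chromosome genes, the most abundant of the 39 by count, went apart. Mki67, which encodes the proliferation antigen Ki-67 that coats mitotic chromosomes (chromosome 7, 145865498 to 145892056), stood at 1418, 1597 and 1459 CPM with RANKL and 1301, 1158 and 1258 CPM with albiflorin. All albiflorin libraries were below all RANKL libraries. It fell by 0.27 on the log2 scale (SE 0.0689, adjusted p = 0.0107), the single member called lower, a call lost when RANKL replicate 2 was left out (adjusted p = 0.0526). Top2a, the topoisomerase that untangles sister chromatids, stood at 1018, 1082 and 1040.5 CPM with RANKL and 1084, 1090.3 and 1086 CPM with albiflorin. Its groups were separate, but the lowest albiflorin library was just 0.125% above the highest RANKL library (0.054 ± 0.0598, adjusted p = 0.56). In the length-adjusted fit Mki67 was at 0.023 (adjusted p = 0.826) and Top2a was called higher at 0.20 (adjusted p = 0.0171). The cytokinesis genes overlapped in all 3 cases and 0 were called: Ect2, the exchange factor that switches on RhoA at the cleavage site, had -0.082 ± 0.064, Racgap1, the centralspindlin subunit that recruits it, 0.064 ± 0.0602, and Anln, the ring scaffold anillin, 0.0039 ± 0.0579.

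Fold change followed mRNA length within the 39 genes as it did across the transcriptome. The 5 members with mRNAs under 1000 nt (Cks2, Cks1b, Birc5, Pttg1 and Ube2c) all rose, with a median of 0.49, and 59.9% of the 586 protein-coding genes of that length were called higher (median 0.38). Between 1000 and 2000 nt 4 of 7 members rose (median 0.21), beside 29.8% of genes (median 0.18). Between 2000 and 3000 nt 7 of 9 members rose (median 0.21), beside 9.52% of genes (median 0.051). Members of 3000 to 4000 nt held 0 of 8 called (median 0.046), where 4.43% of genes were called higher and 7.38% lower (median -0.041). Those of 4000 to 8000 nt held 1 of 8, Cdk1, called higher and 0 lower (median 0.037), where 28.7% of genes were called lower (median -0.14). Cdk1 and Mad2l1 were placed there by the longer of their 2 principal transcripts. The shorter ones have 1253 and 1725 nt, and the classes were not redrawn with them. The 2 longest, Cenpf and Mki67, had values of -0.15 and -0.27, where 57.7% of genes were called lower (median -0.28). In each of these 6 classes the members' median lay above that of all genes of the class.

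Across the 39 genes, which share the 6 libraries and are not independent, Spearman's rho between mRNA length and log2 fold change was -0.80 (-0.89 with the shortest principal transcript), and across 10445 protein-coding genes -0.62. The members were not an unusually short or long set, with a median mRNA of 2960 nt beside 2984 nt for those 10445 genes.

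**Figure D3:**
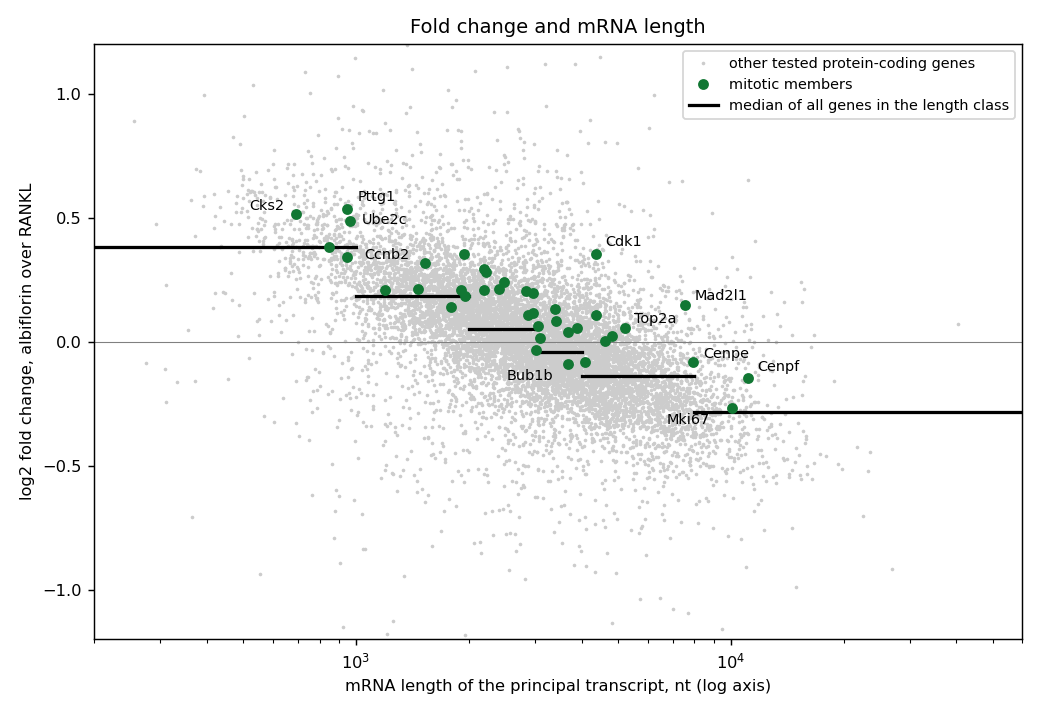
Log2 fold change against mRNA length (log axis) for the mitotic genes (green) and the other tested protein-coding genes (grey; values beyond 1.2 in either direction are not drawn), with the median of all genes in each length class as a black bar. The members step down with length like the other genes and mostly lie above the bars, with Cdk1 and Mad2l1 drawn at the longer of their 2 principal transcripts.

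The members' level by library ran in the same order as the length trend. The median log2 deviation of the 39 genes from the mean of the 6 libraries was -0.052, -0.11 and -0.060 in RANKL replicates 1 to 3, and 0.060, 0.11 and 0.042 in albiflorin replicates 1 to 3. That of all mRNAs under 1000 nt was -0.14, -0.27 and -0.16, then 0.19, 0.32 and 0.068. RANKL replicate 2 was thus lowest and albiflorin replicate 2 highest in both. The part of the trend in the members' result was not tested beyond the fits that remove it. Summed over the 39 genes the TMM-scaled level was 8481 to 8637 CPM with RANKL and 8778 to 8953 CPM with albiflorin, so the groups did not overlap on that scale. As a share of the raw counts the groups did overlap. The 39 genes held 0.845%, 0.875% and 0.867% of counts in RANKL replicates 1 to 3, and 0.890%, 0.879% and 0.872% in albiflorin replicates 1 to 3.

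**Figure D4:**
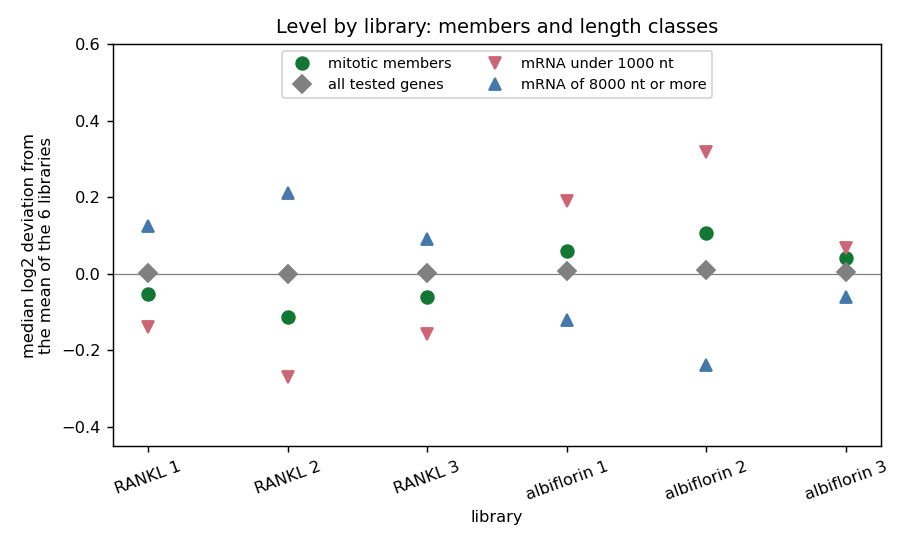
Median log2 deviation from the mean of the 6 libraries, per library, for the mitotic genes (green circles), all tested genes (grey diamonds), mRNAs under 1000 nt (red, pointing down) and mRNAs of 8000 nt or more (blue, pointing up). The mitotic genes lie on the same side as the short mRNAs in all 6 libraries and closer to zero, with both extremes in the libraries numbered 2.

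Related members can be compared per length through the authors' deposited FPKM, which divide by the listed gene length. Ccnb2 stood at 92.8 ± 3.27 FPKM with RANKL and 115 ± 6.49 FPKM with albiflorin (SD, n = 3 per group), above Ccnb1 at 29.6 ± 0.685 FPKM with RANKL and 34.9 ± 2.87 FPKM with albiflorin. Cks1b stood at 138 ± 8.56 FPKM with RANKL and 179 ± 16.6 FPKM with albiflorin and Cks2 at 57.4 ± 5.35 FPKM with RANKL and 81.8 ± 11.8 FPKM with albiflorin. Within each of these pairs the order of levels was the same in both groups, and both genes were called higher. Cdc25b stood at 39.3 ± 1.35 FPKM with RANKL and 39.6 ± 0.118 FPKM with albiflorin, above Cdc25c at 14.3 ± 0.521 FPKM with RANKL and 18.2 ± 1.9 FPKM with albiflorin. Over the 39 genes FPKM with RANKL ran from 14.3 for Cdc25c to 147 for Mki67, with a median of 39.3, so every member was well above the counting floor.

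Some members share their locus. Ccna2, Cdc25c, Kif20a, Nusap1 and Prc1 each overlap another expressed protein-coding gene on the opposite strand (Exosc9, Gm3550, Cdc23, Oip5 and Rccd1), and no source used here says if reads were counted by strand, so those in the overlaps could be shared. As a share of the member's level in CPM, Exosc9 stood at 23.5% of Ccna2, Gm3550 at 33.2% of Cdc25c, Cdc23 at 60.7% of Kif20a, Oip5 at 11.9% of Nusap1 and Rccd1 at 9.6% of Prc1. Of these 5 members Cdc25c and Nusap1 were called higher. Ndc80 has a transcribed pseudogene row described as the same protein, at 16.2 CPM beside 78.6 CPM for Ndc80, so its count is uncertain to that extent.

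Other genes of the pathway were taken from lists. The counts called in each list below stand beside 12.4% called higher and 11.4% called lower over all tested genes. In the length-adjusted fit those shares were 4.89% and 5.59%. No list was tested as a set. Of the 16 factors that control transcription of G2/M genes 0 were called with edgeR (DESeq2 called 0), and 4 had an edgeR value at an unadjusted p under 0.05. At least 3127 of all 13158 tested genes had such a value, since that many passed after adjustment. Foxm1 had -0.075 ± 0.0621 (adjusted p = 0.414) and Mybl2, which encodes B-Myb, -0.071 ± 0.0733 (adjusted p = 0.522), and both overlapped between groups. In the length-adjusted fit the list held 0 higher and 1 lower, Tfdp1 (-0.19, adjusted p = 0.0323), the partner of E2F factors, named after its value was seen. Of the 10 tested brakes on the G2/M step 2 rose and 1 fell. Fbxo5, the inhibitor Emi1 of the anaphase-promoting complex, rose by 0.29 ± 0.0728 (adjusted p = 0.00924), but was not called in the length-adjusted fit (0.17, adjusted p = 0.0939), where the list held 0 higher and 1 lower. Atm, the DNA damage kinase, fell by 0.51 on the log2 scale (SE 0.0686, adjusted p = 0.000306) and was that 1 gene (-0.23, adjusted p = 0.00957). Wee1, the kinase that holds Cdk1 inactive, was lower in every albiflorin library without a call (-0.18 ± 0.0733, adjusted p = 0.0808). Wee1 was not called in the length-adjusted fit (-0.15, adjusted p = 0.159) but was called lower with the listed gene length (-0.35, adjusted p = 0.00575).

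Among 5 tested CDK inhibitor genes 3 rose and 0 fell: Cdkn1a, also on the list of brakes, which encodes p21 (0.22 ± 0.0665, adjusted p = 0.0225), Cdkn2d (0.37 ± 0.0704, adjusted p = 0.00174) and Cdkn3, a phosphatase that acts on Cdk (0.46 ± 0.0909, adjusted p = 0.00224). All 3 lost the call in the length-adjusted fit (adjusted p = 0.185, 0.118 and 0.407), and Cdkn1a changed sign with the shortest principal transcript (-0.071, adjusted p = 0.531). Cdkn1b, which encodes p27, was not called (0.039 ± 0.0609, adjusted p = 0.698).

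The G1/S regulators held 0 higher and 1 lower of 13 (Ccne2, -0.25 ± 0.0839; not called in the length-adjusted fit, adjusted p = 0.0528), with a median of -0.059. DNA replication genes held 8 higher and 2 lower of 31 (median 0.035), among them the thymidine kinase Tk1, which rose by 0.30 ± 0.0639, and the polymerase Pole, at -0.25 ± 0.0702. Neither was called in the length-adjusted fit, where the list held 1 higher and 0 lower.

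The subunits and partners of the anaphase-promoting complex held 3 higher and 1 lower of 16, and 1 higher and 2 lower in the length-adjusted fit. The 2 lower there were the small subunit genes Cdc26 (-0.43, adjusted p = 0.00279) and Anapc15 (-0.35, adjusted p = 0.0344), named after their values were seen. Neither was called without length adjustment, where Cdc26 stood at -0.043 (adjusted p = 0.781) and Anapc15 had the other sign (0.087, adjusted p = 0.587). Ube2s, which extends the chains that Ube2c starts, stood at 151, 151 and 151 CPM with RANKL and 211, 225 and 202 CPM with albiflorin. It rose by 0.49 ± 0.0603 (adjusted p = 0.000191), also in the length-adjusted fit (0.24, adjusted p = 0.00787). The scaffold subunit gene Anapc1 fell by 0.32 on the log2 scale (SE 0.0704, adjusted p = 0.00421), but not in that fit (-0.059, adjusted p = 0.495). Cohesin and condensin genes held 0 higher and 5 lower of 19, led by the cohesin loader Nipbl (-0.33 ± 0.0652) and the condensin subunit Ncapg2 (-0.32 ± 0.0643). In the length-adjusted fit the list held 1 higher and 1 lower; Ncapg2 kept its call (-0.21, adjusted p = 0.0179) and Nipbl did not (-0.052, adjusted p = 0.545).

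Further kinetochore genes held 8 higher and 1 lower of 28, with a median of 0.15, and 0 higher and 1 lower in the length-adjusted fit. Cenph (0.41 ± 0.0911) and the passenger complex subunit gene Cdca8, borealin (0.28 ± 0.0648), had the smallest p. Further spindle genes held 2 higher and 2 lower of 20, near the shares of all tested genes (12.4% and 11.4%). The chromokinesin Kif22 rose (0.27 ± 0.062) and the spindle-pole protein Numa1 fell by 0.45 on the log2 scale (SE 0.0642, adjusted p = 0.000388). Both were called in the same direction in the length-adjusted fit (0.17, adjusted p = 0.0389, and -0.23, adjusted p = 0.00582). Of 11 mitotic exit phosphatase genes 0 were called with edgeR (DESeq2 called 0), and 0 had an edgeR value at an unadjusted p under 0.05. At least 3127 of all 13158 tested genes had such a value. In the length-adjusted fit 2 of the 11 were higher and 0 lower. With the listed gene length, of the genes named from these lists Atm, Ccne2, Tk1, Ube2s, Nipbl, Ncapg2, Cdca8, Numa1 and Kif22 were called as without adjustment, and Fbxo5, Cdkn1a, Cdkn2d, Cdkn3, Pole, Anapc1 and Cenph were not called.

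**Figure D5:**
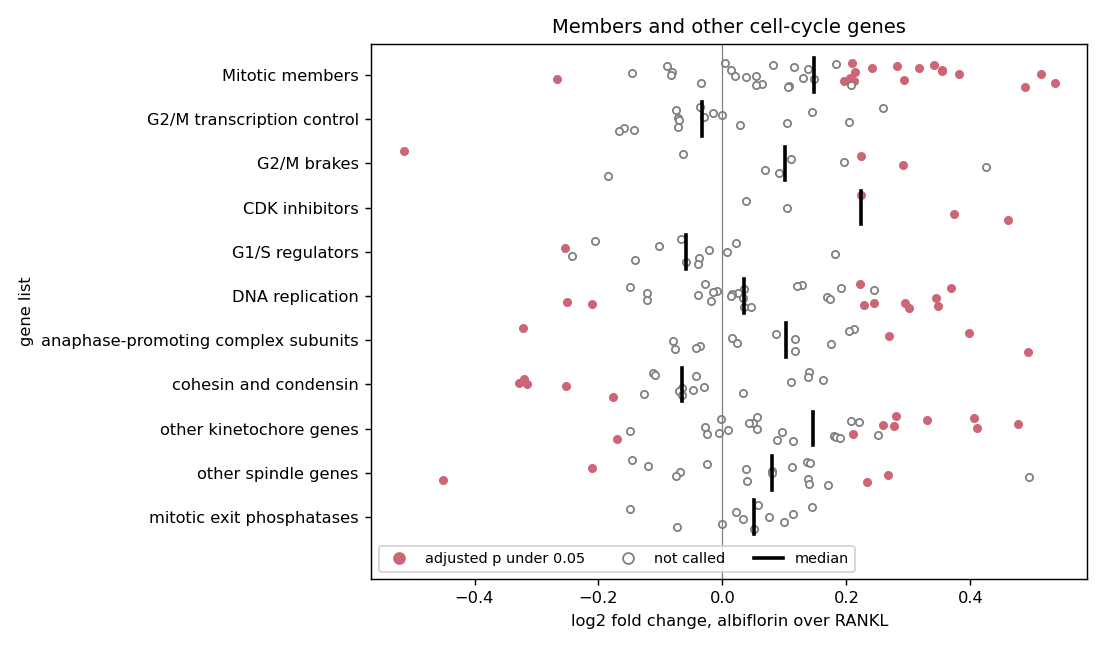
Log2 fold change (albiflorin over RANKL) of the mitotic genes in the top row and of the tested genes of 10 other cell-cycle lists below, filled where the adjusted p is under 0.05, with the list median as a black bar. The mitotic genes have a median of 0.15, the factors that control their transcription -0.034, and cohesin and condensin -0.065.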

How the data were processed

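RNA sequencing was available for 3 RANKL and 3 albiflorin libraries, grouped by their titles. The deposited tables hold raw counts per gene, whole numbers, and FPKM values made by the authors from them. Per the submitters' processing notes, DESeq2 1.42.0, featureCounts 2.0.6-p3, HISAT2 2.2.1, fastp and CASAVA 1.8 were used, in roles not stated. The build aligned to is not stated in the sources used here. Gene identifiers carry the prefix of the C57BL/6NJ assembly, and gene coordinates printed are those of the deposited table, except promoters (RefSeq, GRCm38.p6).

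The deposited counts were tested over all genes with edgeR 4.0.16 in R 4.3.3 (filterByExpr, TMM, quasi-likelihood F-test on group, Benjamini-Hochberg adjusted p under 0.05). Every adjusted p without another tool named comes from this fit, and log2 fold changes are albiflorin over RANKL. Each SE is the log2 fold change over the square root of F. The length-adjusted fit uses as offsets a lowess trend per library (span 0.3, over genes whose mean log2 CPM exceeds 3) on mRNA length, found for 94.5% of tested protein-coding genes and all 39 members; other genes took the listed gene length. With DESeq2 1.42.0, limma 3.58.1 (voom, and log2 of FPKM plus 1 or 0.1 for genes with at least 1 FPKM in 3 libraries), RLE scaling, no filter, a filter of 5 CPM in 3 libraries, the replicate block and each library left out, the fit was repeated. The fit was checked on simulated data with no trend or with a trend on the listed gene length. The fold changes put in were all larger than those of the members, and the fit on mRNA length was not simulated.

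Members, lists and motifs were chosen with earlier results of these data known. Named genes are all members, the 2 called genes of smallest p in each pathway list, and Foxm1, Mybl2, Cdkn1a, Cdkn1b and Wee1. Outside that rule Tfdp1, Cdc26 and Anapc15 were named after their calls in the length-adjusted fit were seen. Replicate pairs of a group differed by more than sampling noise (chi-square per degree of freedom 3.77 to 9.15).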

Additional observations from a re-analysis of the deposited data

How the results depend on the processing

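With RLE scaling, DESeq2, limma-voom, no filter and the stricter filter, 17 members were called higher and 1 lower, as reported above. Limma on log2(FPKM + 1) gave 11 members higher and 1 lower, against 1185 and 881 of all 12059 genes, and on log2(FPKM + 0.1) 10 and 1, against 1153 and 856. With the gene-length trend removed, 945 genes were higher, the members' lower count was 0 and their median 0.11. With the mRNA-length trend removed, 644 of 13158 tested genes were higher and 735 lower (655 and 846 with the shortest principal transcript). Of the members 6 (8) were higher and 0 (0) lower. With each library left out in turn, 984 to 1753 genes were higher and 914 to 1644 lower, 9 to 17 members were higher and 0 to 1 lower, and the members' median ran from 0.11 (without RANKL replicate 2) to 0.19 (without RANKL replicate 1). Of the 18 called members 7 kept their call with each library left out, and 0 kept it under every alternative. On the replicate block: same-numbered libraries did not deviate together (correlations 0.022, -0.043 and -0.066), so the numbers were not taken to pair the samples; with the block as a term 13 members were higher and 1 lower, against 1358 and 1214 of all genes.

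Anapc15 changed from 0.087 (adjusted p = 0.587) to -0.35 (adjusted p = 0.0344) with the mRNA-length trend removed, a call on the changed side. Tfdp1, Cdc26 and Anapc15 were not followed through the other settings. Among the members and the other named genes, the signs that changed, all without a call on the changed side, were these log2 fold changes. Anln stood at -0.0020 with RLE scaling, -0.0020 with DESeq2, -0.0076 with no filter, -0.00082 and -0.00084 on log2(FPKM + 1) and log2(FPKM + 0.1). With the gene-length trend removed Cenpe stood at 0.069, Cenpf at 0.090, Cdc20 at -0.034, Kif20a at -0.048 and Prc1 at 0.11. With the mRNA-length trend removed (and with the shortest principal transcript) Cenpe stood at 0.16 (0.17), Cenpf at 0.17 (0.18), Spc25 at -0.061 (-0.029), Mki67 at 0.023 (0.033) and Foxm1 at 0.036 (0.046); Cdc20 stood at -0.0059 with the former, and Ect2 at 0.0074, Cdkn1a at -0.071 and Cdkn1b at -0.090 with the latter. With each library left out in turn, Anln ran from -0.024 to 0.015, Kif11 from -0.027 to 0.097, Cdc25b from -0.014 to 0.035 and Prc1 from -0.067 to 0.012. The causes were not tested. The lowest mean level of a member with RANKL was 27.9 CPM, and each group has 3 libraries.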

Other observations

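CCAAT boxes on 1 strand stood 31 to 33 bases apart in the promoter windows of 7 of the 34 mitotic genes with a window (20.6%), against 0.918% of all genes in the table: Cdk1, Ccnb1, Ccnb2, Aurka, Spc25, Ube2c and Hmmr. This spacing was chosen after the positions had been seen, and the value is a description. Of these 7 genes Cdk1, Ccnb1, Ccnb2, Aurka and Ube2c were called higher with albiflorin, beside 17 of all 39 members and 12.4% of all tested genes. In the length-adjusted fit only Cdk1 and Ccnb1 of them were called. A link between the spacing and the fold change was not tested.

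The CHR element was present in genes that rose and in genes that did not. Of the 24 mitotic genes with it 10 rose and 1 fell, with a median log2 fold change of 0.13 (0.12 in the length-adjusted fit). Of the 10 without it 6 rose and 0 fell, with a median of 0.20 (0.16). The difference between the 2 sets was not tested.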
